A study of Mus musculus with 6 samples.

Results

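The cytoplasmic ribosomal proteins were followed in the liver after whole-body deletion of Spns1, which encodes a lysosomal membrane protein that exports lysophospholipids. The set holds every protein-coding row of the deposited gene table whose symbol has the form of a cytoplasmic small-subunit (Rps) or large-subunit (Rpl) protein, together with the stalk proteins Rplp0, Rplp1 and Rplp2 and with Rpsa. This name rule found 83 of 54532 genes, spread over 19 chromosomes, and 80 of them had enough counts to be among the 15449 genes tested. RNA from 3 gSpns1-cKO livers and 3 control livers was selected for polyadenylated transcripts and sequenced as 1 library per liver. The gSpns1-cKO mice were Spns1 fl/fl animals with the tamoxifen-activated Cre-ERT2 recombinase at the Rosa26 locus. Tamoxifen was injected around the end of the second postnatal week, and the deletion removes exon 3 in all tissues rather than in hepatocytes alone. By the study's methods the controls were Spns1 fl/fl littermates, whereas the labels call these livers wild type, and no source used here says whether they received tamoxifen. All animals of the study were kept on a C57BL/6 background. The sex of the mice sequenced and their age at harvest are not given in the sources used here.

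Depth ran from 30350002 to 35295611 counts in a library. The TMM factors, which correct the library size for differences in RNA composition, ran from 0.834 to 0.873 for the controls but from 1.16 to 1.18 for gSpns1-cKO livers. Counts of Spns1 itself were 1008, 1562 and 875 in the controls against 642, 1175 and 698 in the gSpns1-cKO group, and it was lower by edgeR's quasi-likelihood test (log2 difference -0.87 ± 0.25 SE, adjusted p = 0.0300), but the call was lost without control liver 2 (adjusted p = 0.0785), gSpns1-cKO liver 1 (0.0910) or gSpns1-cKO liver 3 (0.0830). Its reads outside exon 3 are still counted, so its level is only a partial check of the labels. Hepatocyte markers identified all 6 libraries as liver, with a summed level of 104583 to 119530 CPM (counts over the TMM-scaled library size) in controls and 61385 to 73745 CPM in gSpns1-cKO livers, and 5 of the 8 markers fell. The others were not called, with log2 differences of -0.47 for Ttr, -0.42 for Hnf4a and 0.36 for Cps1. For Cps1 every gSpns1-cKO liver lay above every control liver. All 9 macrophage markers rose, with a summed level of 148 to 244 CPM in controls and 573 to 793 CPM in gSpns1-cKO livers. All 5 cholangiocyte markers, 5 of 6 endothelial markers and 4 of 6 stellate cell markers also rose. The part of this shift in cell markers in the results on ribosomal protein genes was not tested, and in whole liver fewer cells of a type and less RNA per cell cannot be told apart.

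Each ribosome carries a single copy of nearly every ribosomal protein, so the genes of the small (40S) and large (60S) subunit are usually expressed in step although they lie scattered over the genome. Their mRNAs begin with a 5′ terminal oligopyrimidine tract, an uninterrupted run of C and T that lets mTORC1 and the La-related protein Larp1 control their translation together. Liver makes large numbers of ribosomes for secreted proteins, and ribosomal protein mRNAs are abundant there.

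The start sites of the genes that the results turn on are shown here because the tract at the mRNA's first bases is the feature that these genes are best known to share. The RefSeq promoter table (GRCm38.p6) held 75 start sites for 63 of the 83 genes. Capitals mark the longest run of C and T that touches the 25 bases on either side of an annotated start, on the sense strand within a window of 28 bases. A marked run need not be the tract at the mRNA's first bases. Counted in bases from the annotated start, it begins at -22 in Rps27l, -10 in Rpl22, 8 in Rps12 and 13 in Rpl11. In the other printed genes it begins between -5 and 4. The windows of Rpl22 and Rps27l lie upstream of the deposited genes, which begin at 152325742 and 66946086. For a gene with several start sites, the one with the longest run is printed, and the first is marked where runs are equally long, as in Rps27l, whose window holds a second run of the same length.
Rpl18 (chr7:45718063-45718090, plus strand): cgcaggccgCTCTTTCCCCgcccactcc
Rpl13a (chr7:45128723-45128750, minus strand): gacaagaCCTCCTCCTTTCCCaggcggc
Rpl35a (chr16:33056470-33056497, plus strand): gggcttgCCTTCCTCTTTCCgccatctt
Rpl28 (chr7:4792954-4792981, plus strand): ctctcgtgTCTCTCTTTCCgtctccggc
Rpl11 (chr4:136053358-136053385, minus strand): ggaagTCTCCCTCTCTCTTCCTgttctc
Rps27l (chr9:66946055-66946082, plus strand): ccgcctccaCTCCTCTCCactcctcccc
Rps2 (chr17:24720056-24720083, plus strand): gagatctcgcgCTTCTTggagcactata
Rpl22 (chr4:152324415-152324442, plus strand): tatcagcgctgCTTCTggaatgttccag
Rps12 (chr10:23787182-23787209, minus strand): accgccggCCTTTTCCCCTgccgccgcc
Rpl22l1 (chr3:28805500-28805527, plus strand): gcaagcccgTTCTCTTCCCacggctgca

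The first 8 of these genes were lower in gSpns1-cKO livers, and the last pair, Rps12 and Rpl22l1, had the highest log2 differences of the set. The windows of Rps15 and Rpl6, which were also lower, are not printed, and their longest runs had 7 and 6 bases. A run of at least 8 bases was found at 41 of the 75 start sites of ribosomal protein genes (54.7%) and at 7931 of the 32851 start sites in the table (24.1%). The median of the longest run was 9 bases in ribosomal protein genes and 5 bases over all start sites. The motif CTCTTTC, read on the sense strand within the 50 bases around the start, was present at 9.33% of the start sites of ribosomal protein genes and at 0.682% of all, and it can lie inside the run. The motif CCGGAAGT, a core of sites for ETS family factors, was found on either strand in 16% of the 300-base windows of ribosomal protein genes and in 3.89% of all windows. Among the tested genes with a start site in the table, 6 of the 10 that were lower and 30 of the 50 that were not called carried a run of at least 8 bases. A run of this length was thus about as frequent among the genes that were lower as among the rest.

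With TMM scaling, 13 of the 80 tested genes were lower in gSpns1-cKO livers, 0 were higher and 67 were not called at an adjusted p of 0.05 by edgeR's quasi-likelihood test. That is 16.2% called in either direction, against 41.8% of all genes tested, and for lower levels alone the share over all genes tested was 20.5%. The median log2 difference, gSpns1-cKO minus control, was -0.22 over the 80 genes and 0.01 over all genes tested, and 70 of the 80 values lay below 0. This direction depended on the scaling, because scaling by library size only gave a median of 0.23, with 0 genes lower and 13 higher, while the median of all genes tested moved to 0.46. The share of all genes called with library size only is not given here, so such counts have no background beside them. With upper-quartile scaling the median of the set was -0.08 against 0.14 for all genes. The median of the set minus that of all genes tested was -0.23, a distance that a scaling by library can hardly move because it shifts all genes of a library alike. It was -0.13 without gSpns1-cKO liver 1, -0.35 without gSpns1-cKO liver 2, -0.37 when genes with at least 1 count in any library were tested, and -0.10 with a correction for gene length added to the TMM scaling as an offset.

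**Figure D1:**
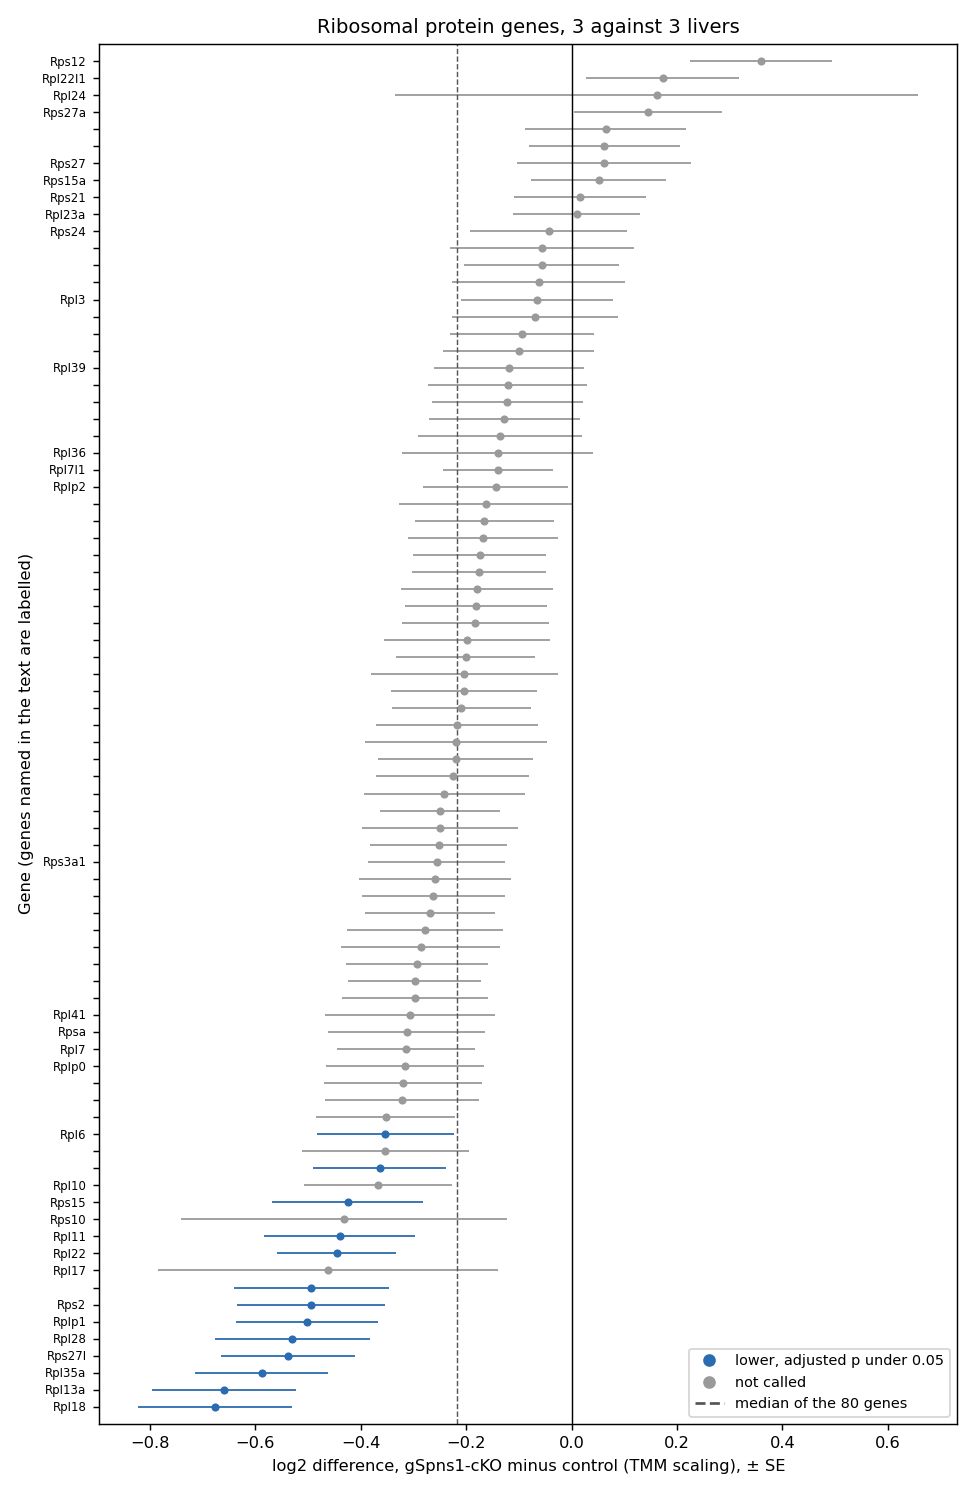
Log2 difference between gSpns1-cKO and control livers (horizontal axis) for the 80 tested ribosomal protein genes (rows, with the genes named in the text labelled), with bars of 1 SE from edgeR and 3 livers per group. The 13 blue genes were lower at an adjusted p of 0.05, and the dashed median lies at -0.22 with TMM scaling but would lie at 0.23 with library size only.

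The log2 differences of the set lay close together. Between their quartiles the 80 values ran from -0.32 to -0.12, a width of 0.19, whereas the same width over all genes tested was 0.90. A difference smaller than 0.5 in either direction was measured for 74 of the 80 genes (92.5%) and for 55.1% of all genes tested. None of the 80 genes differed by 2-fold or more (0 of 80), in contrast to 3273 of all genes tested (21.2%). The 2 sets of genes were not matched for expression level. Across the 80 genes the log2 difference had a Spearman correlation of -0.42 with the control level and 0.01 with the deposited gene length, given as descriptions because these genes share the same 6 libraries.

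**Figure D2:**
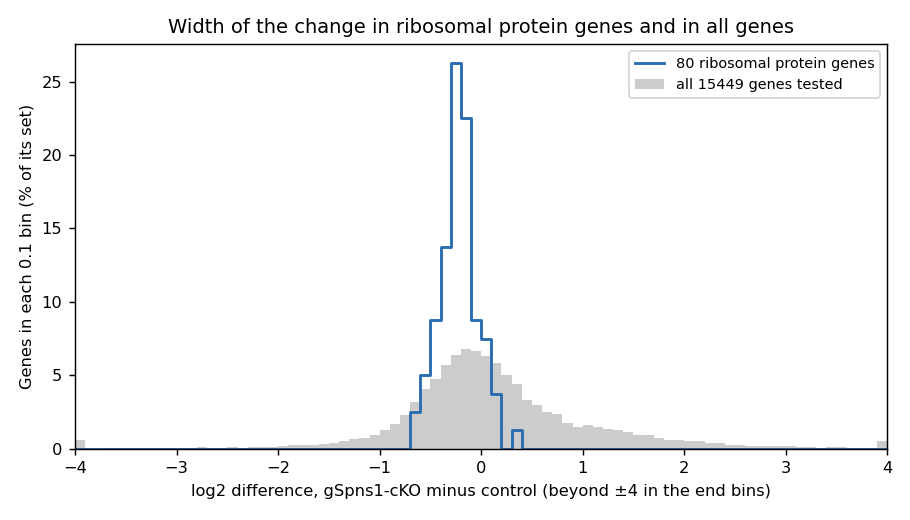
Share of genes (%, vertical axis) in each bin of 0.1 in the log2 difference, gSpns1-cKO minus control (horizontal axis), for the 80 ribosomal protein genes (blue line) and for all 15449 genes tested (grey bars). The blue distribution is narrower, with 92.5% of its genes within 0.5 of zero against 55.1% of all genes, and its place below zero holds for TMM but not for library size only.

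The 3 gSpns1-cKO livers differed in the level of the whole set. The median log2 level of the 80 genes relative to the mean of the controls was -0.45 in gSpns1-cKO liver 1, -0.03 in liver 2 and -0.22 in liver 3, whereas the controls lay between -0.01 and 0.02. Liver 1 was the lowest of its group for 71 of the 80 genes and liver 2 the highest for 76. Summed over the 83 genes, the level was 23135, 22946 and 22988 CPM in control livers and 16627, 21973 and 19369 CPM in gSpns1-cKO livers, so the groups did not overlap after TMM scaling. As a share of all counts with no scaling, the sum was 2.00%, 2.00% and 1.92% in control livers and 1.92%, 2.59% and 2.26% in gSpns1-cKO livers, and here the groups overlapped. On the TMM scale, 33 of the 80 genes had every gSpns1-cKO liver below every control liver, against 26.9% of all genes tested. Only Rps12 of the 80 had every one above, against 27.1% of all genes tested. In either direction, 54.0% of all genes tested did not overlap. Without liver 2 of the gSpns1-cKO group 24 ribosomal protein genes were lower, and without liver 3 only 5 were. Without control liver 1, 2 or 3, the counts were 9, 6 and 7, and without gSpns1-cKO liver 1 the count was 9. The share of all genes called in these fits is not given here, so these counts have no background beside them.

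**Figure D3:**
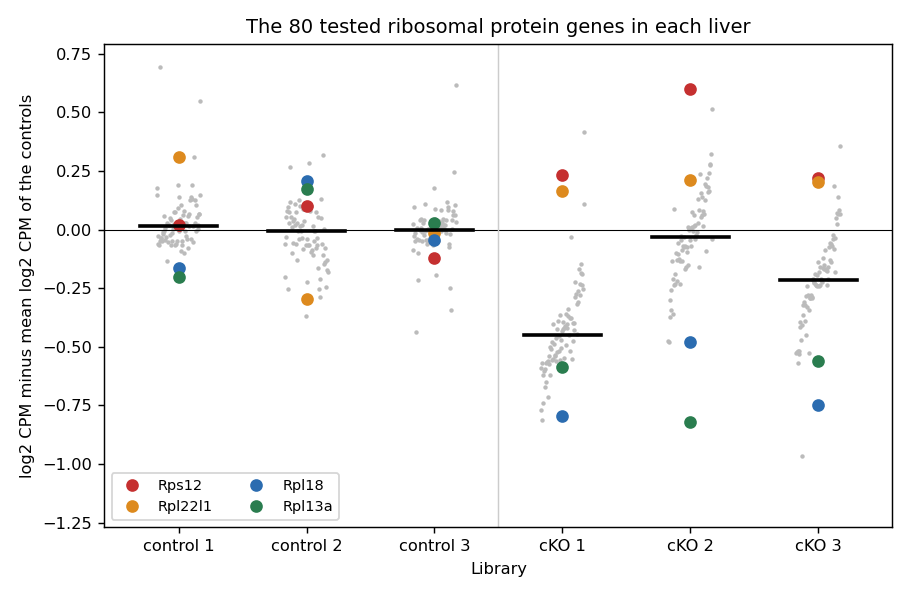
Log2 CPM of the 80 tested ribosomal protein genes in each of the 6 livers, relative to the mean of the 3 controls and ordered within a liver by their log2 difference (points, with TMM scaling), and the median of each liver (black lines). The medians of gSpns1-cKO livers 1, 2 and 3 lie at -0.45, -0.03 and -0.22, Rps12 (red) lies above the controls in all 3, and Rpl18 (blue) and Rpl13a (green) lie below them in all 3.

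Of the 32 genes of the small subunit, 4 were lower (12.5%, against 20.5% of all genes tested) and 28 were not called. Their median log2 difference was -0.22. With library size only this median became 0.23, beside 0.46 for all genes tested, with 8 genes higher and 0 lower. Rps27l, the paralog of Rps27 that is induced by p53, had 250, 192 and 225 CPM in control livers and 146, 158 and 154 CPM in gSpns1-cKO livers, with a log2 difference of -0.54 ± 0.13 SE (adjusted p = 0.00722). All 3 of its gSpns1-cKO values lay close together and below the lowest control. Rps2, a protein next to the entry of the mRNA channel, had 772, 855 and 800 CPM in controls and 526, 638 and 560 CPM in gSpns1-cKO livers (log2 difference -0.49 ± 0.14 SE, adjusted p = 0.0170). Rps15, a protein of the head of the subunit, was lower by a smaller step (log2 difference -0.42 ± 0.14 SE, adjusted p = 0.0349). Every gSpns1-cKO liver lay below every control liver for this gene. Scaled by library size only, Rps15 was at 0.02 and was not called.

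Of the 45 tested genes of the large subunit outside the stalk, 8 were lower (17.8%, against 20.5% of all genes tested) and 37 were not called. Their median was -0.21. With library size only this median became 0.24, beside 0.46 for all genes tested, with 5 genes higher and 0 lower. Rpl18 (ENSMUSG00000059070, GRCm38 chr7:45715457-45720836, plus strand) had the lowest log2 difference of the set, -0.68 ± 0.15 SE (adjusted p = 0.00446). It was measured at 318, 411 and 345 CPM in control livers and 205, 255 and 212 CPM in gSpns1-cKO livers, with no overlap. Rpl18 lies over Sphk2, the sphingosine kinase gene on the opposite strand, which had 8048 counts over the 6 libraries against 55873 for Rpl18, and whether counting used strand is not given in the sources used here. Rpl13a, which also serves in a complex that silences inflammatory mRNAs, had 16.6, 21.6 and 19.5 CPM in controls and 12.7, 10.8 and 13.0 CPM in gSpns1-cKO livers (log2 difference -0.66 ± 0.14 SE, adjusted p = 0.00363). It had only 416 to 665 counts in a library, far fewer than most of the set. Rpl35a, one of the genes mutated in Diamond-Blackfan anemia, had 214, 185 and 182 CPM in controls and 114, 139 and 134 CPM in gSpns1-cKO livers (log2 difference -0.59 ± 0.13 SE, adjusted p = 0.00428). Its groups were far apart relative to the spread within each.

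Rpl22, an RNA-binding protein on the outer face of the large subunit, had 173, 181 and 178 CPM in controls and 118, 139 and 135 CPM in gSpns1-cKO livers (log2 difference -0.45 ± 0.11 SE, adjusted p = 0.00990). The control values differed by less than 10 CPM and the groups did not overlap. Rpl28, a protein of the large subunit, had a log2 difference of -0.53 ± 0.15 SE (adjusted p = 0.0156). Rpl11, which binds and inhibits Mdm2 when ribosome assembly fails, and Rpl6 were also lower (-0.44 ± 0.14 and -0.35 ± 0.13 SE, adjusted p = 0.0305 and 0.0497). The group of 5 genes that were lower in all 6 fits with 1 liver left out was Rpl13a, Rpl18, Rpl22, Rpl35a and Rps27l, and the length correction kept the first 4 of these below the threshold. The other 8 genes lost their call without gSpns1-cKO liver 3. None of the 5 was called with library size only, and the log2 difference of Rpl18 was then -0.23.

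The stalk of the large subunit, which recruits the elongation factors, is built from Rplp0 and dimers of Rplp1 and Rplp2. Rplp1 was lower, at 590, 603 and 659 CPM in controls and 415, 476 and 415 CPM in gSpns1-cKO livers (log2 difference -0.50 ± 0.13 SE, adjusted p = 0.0129). Rplp0, the anchor of the stalk, had 590, 699 and 660 CPM in controls and 456, 594 and 515 CPM in gSpns1-cKO livers and was not called (-0.32 ± 0.15 SE, adjusted p = 0.115). Rplp2, the partner of Rplp1, was at 252, 258 and 267 CPM in controls and 200, 275 and 230 CPM in gSpns1-cKO livers, where 1 liver exceeded every control (-0.14 ± 0.14 SE, adjusted p = 0.430). The difference between Rplp1 and Rplp2 was not tested. Rpsa, a small-subunit protein also known as the laminin receptor, had no overlap between groups but was not called (-0.31 ± 0.15 SE, adjusted p = 0.115). Under scaling by library size only, Rplp0, Rplp2 and Rpsa were at 0.13, 0.30 and 0.13.

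Rps12 had the highest log2 difference of the set. It is a protein of the beak of the small subunit and lies on the minus strand of chromosome 10 (ENSMUSG00000061983, GRCm38 chr10:23785183-23787275). Its counts were 3562, 4128 and 2905 in the controls and 5277, 7271 and 5724 in the gSpns1-cKO group. On the CPM scale this was 127, 134 and 115 in controls and 147, 189 and 146 in gSpns1-cKO livers, and all 3 gSpns1-cKO livers lay above all 3 controls. In the comparison with TMM scaling it missed the threshold (log2 difference 0.36 ± 0.13 SE, adjusted p = 0.0526).

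To compare ribosomal protein genes with each other without a scaling over all genes, the summed counts of the 83 genes were used as the library size. On this scale Rps12 was the only one of the 80 genes called, with a log2 difference of 0.61 ± 0.16 SE (adjusted p = 0.0102), where 35.0% of all genes tested were called in either direction, 28.4% as higher and 6.58% as lower. Rps12 made up 0.547%, 0.584% and 0.499% of the counts of ribosomal protein genes in control livers and 0.882%, 0.862% and 0.751% in gSpns1-cKO livers. The share was thus higher in every gSpns1-cKO liver than in any control liver. Without control liver 3 the difference was 0.56 and was no longer called (adjusted p = 0.0684), and over the fits that left out each liver it ran from 0.56 to 0.68. The annotation lists 24 copies of Rps12 outside its locus, and 83.6% of the 50-base stretches of its mRNA occur in another annotated transcript. When the counts of each gene were summed with those of its copies, Rps12 was still called relative to the summed counts (0.54, adjusted p = 0.0196). With TMM scaling the copies brought it to 0.29, and it was not called by the same edgeR test (adjusted p = 0.107).

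Rpl22l1, Rps27a and Rpl24 had the next highest log2 differences on this scale (0.44, 0.42 and 0.42) and Rpl18 the lowest, and none of them was called. Rpl22l1 made up 0.121%, 0.0800% and 0.0971% of the summed counts in controls and 0.152%, 0.119% and 0.134% in gSpns1-cKO livers, where the groups overlapped (0.44 ± 0.19 SE, adjusted p = 0.0808). Rpl18 made up between 1.37% and 1.79% in controls and between 1.09% and 1.23% in gSpns1-cKO livers, with no overlap (-0.42 ± 0.17 SE, adjusted p = 0.0770). The counts of the small subunit divided by those of the large subunit, stalk included, were 0.752, 0.738 and 0.746 in control livers and 0.762, 0.775 and 0.784 in gSpns1-cKO livers. This ratio needs no scaling, and its groups did not overlap, with a mean of 0.745 ± 0.007 (SD, n = 3) in controls and 0.774 ± 0.011 (SD, n = 3) in gSpns1-cKO livers. The part of single genes such as Rps12 in this ratio was not tested.

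**Figure D4:**
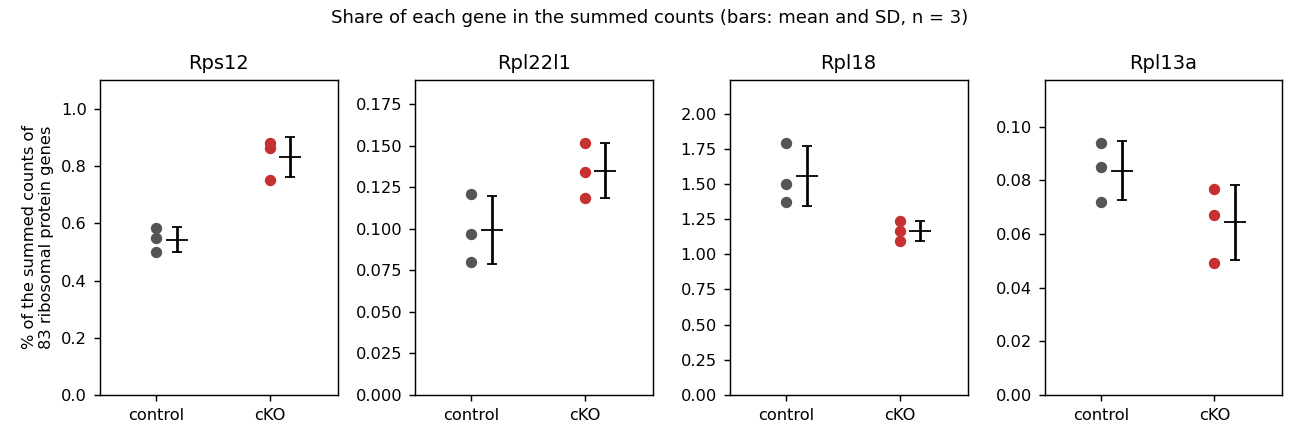
Share of Rps12, Rpl22l1, Rpl18 and Rpl13a in the summed counts of the 83 ribosomal protein genes (%, vertical axes start at 0 and differ between panels) in control and gSpns1-cKO livers, with each liver as a point and mean ± SD (n = 3) as bars. The share of Rps12 rose from between 0.499% and 0.584% to between 0.751% and 0.882%, and the groups of Rpl18 also do not overlap.

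Per length of mRNA, the levels of the set ranged widely in control livers. Rplp1 stood highest at 1237 ± 73.2 CPM per kb of mRNA (SD, n = 3) in controls and 873 ± 70.0 in gSpns1-cKO livers. Rpl41, the smallest ribosomal protein, was next at 1022 ± 85.0 in controls and 826 ± 153 in gSpns1-cKO livers, followed by Rpl10 at 788 ± 26.2 and 611 ± 70.2. Control values of Rplp1 and Rpl41 were further apart than 1 SD of each, whereas the same intervals overlapped in gSpns1-cKO livers. By the gene length deposited with the counts, which spans all exons of a gene, the order was instead Rplp1, Rps15, Rpl36 and Rps3a1. On the scale of mRNA length, Rps15 was at 747 ± 57.8 CPM per kb of mRNA in controls and 557 ± 78.8 in gSpns1-cKO livers. Rpl36 was at 592 ± 28.2 and 537 ± 149 CPM per kb, and its log2 difference was -0.14 ± 0.18 SE (adjusted p = 0.565). Rps3a1 was at 548 ± 14.1 and 459 ± 36.8 CPM per kb, with a log2 difference of -0.26 ± 0.13 SE (adjusted p = 0.139). The intervals of 1 SD of Rpl36 and Rps3a1 did not separate the pair in gSpns1-cKO livers.

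The 4 genes with the smallest log2 difference were Rpl23a, Rps21, Rps24 and Rps15a, none of which was called. Rpl23a, which lies at the exit of the peptide tunnel and contacts the signal recognition particle, had 75.6, 76.1 and 76.0 CPM in controls and 64.6, 85.9 and 78.6 CPM in gSpns1-cKO livers (0.01 ± 0.12 SE). Its controls were nearly equal and the gSpns1-cKO livers lay on both sides of them. Its row overlaps Tlcd1 on the opposite strand, with 8516 counts over all libraries against 15113 for Rpl23a. Rps21 and Rps15a, small proteins of the small subunit, had log2 differences of 0.02 ± 0.13 and 0.05 ± 0.13 SE, and Rps24, a Diamond-Blackfan anemia gene, had -0.04 ± 0.15 SE. The sign of these small values changed with the scaling or with the liver left out. All 4 genes were called higher with library size only.

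Several ribosomal proteins have a second gene, which in some pairs can take their place in the ribosome. The pairs here were formed by symbol alone. Rpl22 and Rpl22l1 stood on opposite sides of the median, at -0.45 (lower) and 0.17 ± 0.15 SE (adjusted p = 0.368, not called). Rpl22l1 had 786, 566 and 565 counts in controls and 909, 1002 and 1021 in gSpns1-cKO livers, and in CPM its groups overlapped. With library size only Rpl22l1, Rps27 and Rpl7l1 were called higher (0.62, 0.51 and 0.30, adjusted p = 0.00534, 0.0214 and 0.0305), and Rpl22 was at 0.00 and Rpl7 at 0.13. Rps27l and Rps27 also differed in their calls, since Rps27, at 168, 141 and 198 CPM in controls and 142, 203 and 185 CPM in gSpns1-cKO livers, was at 0.06 ± 0.17 SE (adjusted p = 0.789). The differences within these pairs were not tested. Of the 50-base stretches of Rps27, 98.6% occur in another transcript, against 22.4% for Rps27l. Rpl7 (-0.31 ± 0.13 SE, adjusted p = 0.0775) and Rpl7l1 (-0.14 ± 0.10 SE, adjusted p = 0.306) were both not called.

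Rpl10l, Rpl39l and Rpl3l were not tested because of low counts. Rpl3l, a paralog used in striated muscle, had 2, 4 and 1 counts in controls and 2, 4 and 1 in gSpns1-cKO livers. Rpl39l, expressed in male germ cells, had 2 counts in 1 control liver, 2 in 1 gSpns1-cKO liver and 0 in the other 4. Rpl10l, a testis paralog of the X-linked Rpl10, had 0 counts in every library, which at a floor of 3 counts per library allows a level of up to 0.0763 to 0.118 CPM. Such intervals cover counting error only. The parents of these paralogs were abundant, and none of them was called. Rpl10 was at 425.9 to 652 CPM (log2 difference -0.37 ± 0.14 SE, adjusted p = 0.0560, no overlap), Rpl3 at -0.07 ± 0.14 SE and Rpl39 at -0.12 ± 0.14 SE. Under library size only, Rpl10, Rpl3 and Rpl39 were at 0.08, 0.38 and 0.33.

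Ribosomal protein mRNAs have left many processed copies in the mouse genome, and reads that fit several places are assigned or dropped by rules that are not given in the sources used here. The table held 384 rows of annotated copies for 67 of the 83 genes, of which 176 rows had a count. Together the copies held between 3.72% and 4.03% as many counts as the genes themselves, a share that was alike in all 6 libraries. Rps10 had only 66, 90 and 53 counts in controls and 59, 99 and 49 in gSpns1-cKO livers, whereas its copy Rps10-ps2 had 1482, 2084 and 1493 in controls and 1619, 2620 and 2105 in gSpns1-cKO livers. Rpl24, a protein at the interface of the subunits, had 6 to 24 counts in any library. Of its 50-base stretches, 81.7% occur in another annotated transcript, which can lie at the same place, and its annotated copy had 0 counts. Rps10 and Rpl24 each overlap a gene on the same strand with 0 counts, RPS10-NUDT3 and Gm28037. Abundant genes of the set such as Rpl13 and Rpl19 also overlap one. The part of copies and of overlapping genes in these low counts was not tested. Rpl17 had fewer counts than its copy Rpl17-ps10 in every library, and control liver 1, with 3419 counts against 1947 and 1406 in the other controls, stood apart. The levels of these 3 genes are therefore uncertain. Adding the copies to their genes left 13 genes lower and 0 higher, the same 13 genes as without them.

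The other genes of translation and ribosome making were described by 8 lists. Over the 217 tested genes of these lists, 30 were higher and 49 were lower with TMM scaling, against 21.3% higher and 20.5% lower over all genes tested. With library size only 125 were higher and 4 lower, but the median of all genes tested was then itself 0.46. The share of all genes called on that scale is not given here, so counts with library size only have no background beside them. Of 5 ribosomal proteins outside the name rule, 1 was lower and 0 higher, with a median of -0.32 that became 0.12 with library size only. Fau, the fusion gene of a small-subunit protein, was not called (-0.32 ± 0.16 SE, adjusted p = 0.137). Of 22 other genes known for a 5′ terminal oligopyrimidine tract, 12 were lower and 0 higher, with a median of -0.37, while with library size only 1 was lower and 3 higher and the median was 0.08. The length correction left the count of this list at 12 lower and 0 higher. Among them were Snhg8, a host transcript of a small nucleolar RNA (-0.85 ± 0.12 SE, adjusted p = 0.000450), and Eif4a2, a helicase of the cap-binding complex (-0.68 ± 0.13 SE, adjusted p = 0.00278).

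Of 36 initiation factors, 13 were lower and 2 higher, with a median of -0.19, against 0 lower, 15 higher and 0.26 with library size only. Eif4b, the cofactor of that helicase, was lower (-0.66 ± 0.12 SE, adjusted p = 0.00166), and Eif3a, the largest subunit of eIF3, and Eif2s1, the subunit of eIF2 phosphorylated under stress, were higher (0.41 ± 0.12 and 0.36 ± 0.11 SE, adjusted p = 0.0212 and 0.0210). Of 14 elongation and release factors, 6 were lower and 1 higher, with a median of -0.33, against 0 lower, 6 higher and 0.11 with library size only. Hbs1l, a ribosome rescue factor, and Eef1d, an exchange factor of the elongation factor Eef1a1, were lower (-0.73 ± 0.12 and -0.59 ± 0.11 SE, adjusted p = 0.000865 and 0.00191). Eif5a2, with only 6 to 15 counts in control livers and 34 to 61 in gSpns1-cKO livers, was higher (1.65 ± 0.45 SE, adjusted p = 0.0149). Several of these factors stand in more than 1 of the lists. The calls of Eif3a and Eif2s1 were lost without control liver 2, control liver 3 or gSpns1-cKO liver 3, and that of Eif2s1 also without gSpns1-cKO liver 1, with adjusted p-values up to 0.107 and 0.0748. The call of Eif5a2 was lost without control liver 1, control liver 2 or gSpns1-cKO liver 2 (adjusted p up to 0.0626).

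Of 49 assembly factors of the small subunit, 12 were higher (24.5%) and 6 lower (12.2%), with a median of 0.13, and with library size only 37 were higher and 1 lower. Of 50 assembly factors of the large subunit, 8 were higher (16%) and 3 lower (6%), with a median of 0.09, and with library size only 40 were higher and 1 lower. Over all genes tested 21.3% were higher and 20.5% lower with TMM, so the shares of higher genes were near the background. With library size only the medians of these 2 lists were 0.58 and 0.53, beside 0.46 for all genes tested. Nol10 and Nop58, nucleolar proteins of early assembly, were higher (1.08 ± 0.17 and 0.73 ± 0.14 SE, adjusted p = 0.000691 and 0.00245), as were Rrp1b and Noc3l (0.76 ± 0.21 and 0.61 ± 0.15 SE, adjusted p = 0.0163 and 0.0101). Rcl1, a factor of small-subunit RNA processing, had 3181, 3579 and 2711 counts in controls and 2104, 2439 and 2067 in gSpns1-cKO livers and was lower (-0.95 ± 0.11 SE, adjusted p = 0.000130), together with Imp3, Nop16 and Bop1 (-0.66, -0.79 and -0.37). Bop1 was at 0.07 with library size only. The call of Noc3l was lost without gSpns1-cKO liver 3 (adjusted p = 0.0596), that of Rrp1b without control liver 3 or gSpns1-cKO liver 3 (0.0570 and 0.0662), and that of Bop1 without control liver 2 or any 1 gSpns1-cKO liver (0.0542 to 0.145).

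Of 28 genes of RNA polymerase I and its factors, 2 were higher and 8 lower, with a median of 0.00, against 16 higher, 1 lower and 0.44 with library size only. The lowest were Polr2l and Polr2f, small subunits that the 3 nuclear RNA polymerases share (-0.99 ± 0.15 and -0.79 ± 0.13 SE, adjusted p = 0.000710 and 0.00112), and the highest were Taf1c and Top1 (1.27 ± 0.31 and 0.68 ± 0.13 SE, adjusted p = 0.00872 and 0.00253). Of 25 regulators of ribosomal protein mRNA, 5 were higher and 8 lower, with a median of -0.22, against 9 higher, 0 lower and 0.22 with library size only. Ddit4, an inhibitor of mTORC1, had 256, 386 and 421 counts in controls and 1742, 964 and 1066 in gSpns1-cKO livers (1.40 ± 0.33 SE, adjusted p = 0.0181). Tia1, which binds oligopyrimidine mRNAs under amino acid shortage, was also higher (1.33 ± 0.19 SE, adjusted p = 0.000421), whereas Mycn and Tbl1xr1 were lower (-1.33 ± 0.44 and -0.65 ± 0.10 SE, adjusted p = 0.0340 and 0.000715). Mycn had 14 to 67 counts in a library, and its call was lost without control liver 1, control liver 3, gSpns1-cKO liver 2 or gSpns1-cKO liver 3 (adjusted p up to 0.118). The call of Ddit4 was lost without control liver 2 (adjusted p = 0.0655). Whether the changes of these regulators and those of ribosomal protein genes are related was not tested.

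**Figure D5:**
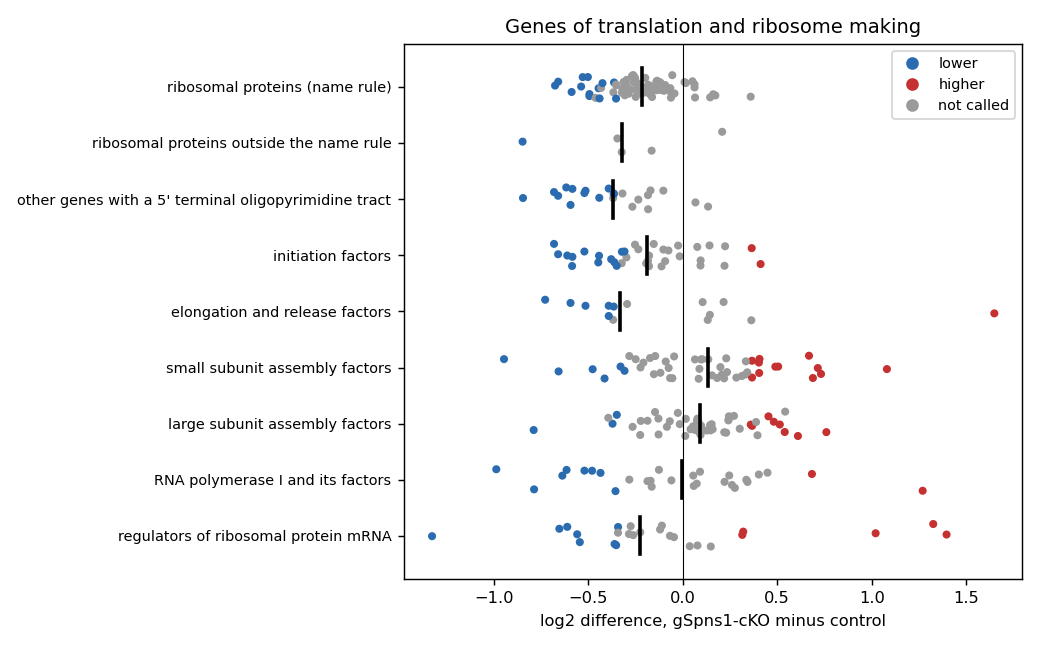
Log2 difference, gSpns1-cKO minus control with TMM scaling (horizontal axis), for the tested genes of the ribosomal protein set and of 8 further lists (rows, with points spread vertically for sight). Points are single genes coloured by their call at an adjusted p of 0.05, and black lines are list medians. The medians run from -0.37 for other oligopyrimidine genes to 0.13 for small-subunit assembly factors. With library size only most calls in these lists were higher, and the median of all genes tested was then 0.46.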

How the data were processed

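Whole livers of 3 gSpns1-cKO and 3 control mice were compared, grouped by the sample labels. The authors deposited the raw counts of each gene, as whole numbers in a column per library, and the length of each gene. Per the labels, fastp, HISAT2 2.0.5 and featureCounts 1.5.0-p3 were used with mm10, whereas the handling of multi-mapping reads and strand is not given in the sources used here. The FPKM values and the authors' own comparison (fold changes and p-values) in the same table were not used. Coordinates are those of the table, which equal GENCODE M21 for 81 of the 83 genes, and mRNA lengths and shared 50-base stretches come from that annotation.

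Tests used edgeR 4.0.16 under R 4.3.3 (filterByExpr, TMM, robust quasi-likelihood fit, no covariate) over all 15449 genes kept, with Benjamini-Hochberg adjustment over them and a threshold of 0.05. Values after ± are SE for log2 differences, taken as the log2 difference over the square root of F, and SD for levels. With n = 3 per group, labelled only as separate livers, p-values set the group difference against the spread between these samples. That spread is estimated with information shared across genes. Alternatives were library size only, upper-quartile and RLE scaling, DESeq2 1.42.0, limma-voom (limma 3.58.1), 2 other filters on low counts, protein-coding genes only, a length correction, a replicate block, a threshold of 0.01, leaving out each liver and, chosen after seeing the data, adding annotated copies. The edgeR, DESeq2 and limma-voom fits were tested on simulated data. Only a small part of the genes was changed there, in both directions, so the simulation does not bear on the choice of scaling.

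The members and gene lists were chosen with earlier results of these data known. Genes were named by rule. They are the 8 lowest called members, the 4 nearest to 0, the 4 highest per deposited length, paralogs with their parents, Rplp0, Rplp1, Rplp2 and Rpsa, members not tested, and those called relative to the summed members. From each other list the 2 highest and 2 lowest called genes were taken. A few of these are left unreported. Rpl11, Rpl6, Rps10, Rpl17, Rpl24, Rpl41, Rps27a and Fau were chosen after their values were seen.

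Other marker lists were T cell (0 of 7 higher, 1 lower), B cell (0 of 5 called), neutrophil (2 of 2 tested higher), erythroid (2 higher and 1 lower of 4 tested), dividing cell (0 of 4 tested called), muscle (0 tested) and germ cell (1 tested, lower).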

Additional observations from a re-analysis of the deposited data

How the results depend on the processing

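With TMM scaling 13 ribosomal protein genes were lower and 0 higher. With library size only 0 were lower and 13 higher, and the median log2 difference reversed to 0.23. Among the other translation genes, 4 were then lower and 125 higher, while the median of all genes tested was 0.46. The share of all genes called on that scale is not given here. With upper-quartile scaling 5 members were lower and 1 higher, and of the other genes 30 were lower and 49 higher. The cause is by construction the scaling, since the counts and genes were the same. The length correction left 4 lower and 1 higher, and the threshold of 0.01 left 5 lower. Rps12 was the 1 member higher with DESeq2, with either other filter on low counts, with the length correction and with the replicate block. Relative to the summed members the threshold of 0.01 left 0 higher.

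Leaving out each liver gave 5 to 24 members lower, 0 to 1 higher and a median of -0.33 to -0.12, and 28 to 46 of the other genes lower and 13 to 30 higher. The share of all genes called in these fits is not given here. Relative to the summed members, 0 to 3 members were higher and 0 to 2 lower. On that scale Rps12 was lost without control liver 3, Rpl13a and Rpl18 were lower without gSpns1-cKO liver 1, Rpl22l1 was higher without control liver 1, and Rpl22l1 and Rps27a were higher without gSpns1-cKO liver 2.

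Log2 differences of single genes changed sign in 34 cases, kept their sign but lost the call in 96, gained a call in 20, and kept both sign and side of the threshold in 844. With library size only Rps24 was at 0.40, Rps15 at 0.018, Rpl36 at 0.31, Rps3a1 at 0.19, Rpl7l1 at 0.30, Rpl7 at 0.13, Rpl3 at 0.38, Rpl39 at 0.33, Rpl10 at 0.076, Rplp0 at 0.13, Rplp2 at 0.30, Rpsa at 0.13 and Bop1 at 0.069. With upper-quartile scaling Rps24 was at 0.089, Rpl3 at 0.066 and Rpl39 at 0.014. With the length correction Rps15a was at -0.044, Rpl36 at 0.058 and Rpl39 at 0.059. Rpl23a was at -0.0016 with limma-voom, -0.00053 with the replicate block and -0.019 with copies added. Over the fits without 1 liver, Rpl23a ran from -0.084 to 0.11, Rps21 from -0.062 to 0.090, Rps27 from -0.059 to 0.19, Rps15a from -0.053 to 0.15, Rps24 from -0.16 to 0.060, Rpl36 from -0.37 to 0.027 and Rpl3 from -0.17 to 0.042.

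The replicate numbers gave no sign of a pairing, because the deviations of same-numbered livers correlated at 0.04, 0.03 and -0.03. With 3 livers per group this cannot exclude a pairing, and by the study's methods the controls were littermates. With the replicate block 11 members were lower and 1 higher. Depth limits Rpl10l, Rpl39l and Rpl3l, which were too low to test.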
